A study of Mus musculus with 2 samples.

Results

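miR-147 is a microRNA linked to inflammation, and its reads were followed here in mouse Th17 cells and in control Th0 cells. A hairpin precursor can give a mature miRNA from its 5′ side (5p) and one from its 3′ side (3p). The rule took the row of miR-147-3p and every other row whose precursor is mir-147, which gave 2 rows, miR-147-3p and miR-147-5p, among 1125 miRNAs listed in at least 1 library. Both rows were listed in both libraries. miR-147-3p was chosen by its read counts, because they were much higher in the Th17 library than in the Th0 library, so its ratio and that of its partner arm are given as a description and carry no test.

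Naive CD4+CD62L+ T cells from the spleen of female C57BL/6 mice were the starting cells of both cultures, which were kept in medium with 10% foetal bovine serum. Th17 medium contained 4 cytokines, which were 2 ng/ml TGF-β, 10 ng/ml IL-1β, 40 ng/ml IL-6 and 40 ng/ml IL-23. It also contained 1 µg/ml of anti-CD28 and 5 µg/ml of each of 4 blocking antibodies, against IL-2, IL-4, IL-12 and IFN-γ, and that culture ran for 6 to 7 days. Th0 medium, the control, contained the same anti-CD28, anti-IL-4 and anti-IFN-γ. The labels name no cytokine, anti-IL-2 or anti-IL-12 for it and do not say how long the Th0 cells were cultured, so a longer or shorter culture and the Th17 medium cannot be told apart in any ratio below. Small RNA was sequenced, and each group is 1 column of reads, with 11975371 reads over 1012 miRNAs in Th17 and 8358010 reads over 986 miRNAs in Th0. The labels speak of triplicates and do not say how these were combined. Intervals below are therefore 95% intervals for counting error in 2 libraries, and no difference could be tested against the spread between cultures.

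A miRNA guides the Argonaute protein to messenger RNAs that pair with its seed, the bases at positions 2 to 8 from its 5′ end, and lowers the output of those messengers. In mouse macrophages miR-147 is induced by ligands of Toll-like receptors, through NF-κB, and has been reported to dampen the production of inflammatory cytokines. Its gene is embedded in a protein-coding host, AA467197, also known as Nmes1 and in human as C15orf48, which encodes a small mitochondrial protein of the respiratory chain. The human counterpart, miR-147b, is reported to target NDUFA4, the subunit of cytochrome c oxidase whose place the host's protein can take.

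In mm10 coordinates (GENCODE M21) Mir147 lies on chromosome 2 from 122640803 to 122640881, plus strand, a hairpin of 79 bases. The whole hairpin lies in the last exon of AA467197 on the same strand. In both coding transcripts that hold it, AA467197-201 with 5 exons and AA467197-202 with 4, it falls in the 3′ UTR and begins 36 bases after the first base of the stop codon. The other transcript that holds it, AA467197-204, is annotated as a processed transcript without a coding region.

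Mature sequences are shown for miR-147-5p, for miR-10b-5p, which had a larger ratio, for 3 miRNAs with the nearest ratios and for 2 abundant inflammation-induced miRNAs, so that their seeds can be compared. miR-147-3p, miR-151-3p and miR-151-5p are named only. The sequences are from RefSeq (GRCm38.p6), written 5′ to 3′, with the seed in capitals.
miR-147-5p: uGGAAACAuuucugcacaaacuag
miR-10b-5p: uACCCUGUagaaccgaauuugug
miR-92b-3p: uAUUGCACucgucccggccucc
miR-155-3p: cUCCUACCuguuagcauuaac
miR-155-5p: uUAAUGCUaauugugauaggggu
miR-146a-5p: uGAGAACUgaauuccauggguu
miR-210-5p: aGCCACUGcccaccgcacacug

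miR-147-5p is 24 bases long and lies on chromosome 2 from 122640814 to 122640837. Of the 1125 listed miRNAs, 935 were matched to a mature RefSeq sequence, and none of the others in that set had the seed of miR-147-5p. Only miR-8107 had the same bases 2 to 7, and it had no read in Th17 and 1 read in Th0. The other sequences shown each have a different seed. miR-92b-3p shares its seed with 4 further listed miRNAs, miR-25-3p, miR-32-5p, miR-363-3p and miR-92a-3p, miR-10b-5p with miR-10a-5p, and miR-146a-5p with miR-146b-5p.

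miR-147-3p, by far the more abundant arm, had 32205 reads in Th17 and 2165 reads in Th0. CPM stands for reads scaled to a library total of 1000000 listed reads. On that scale miR-147-3p had 2689 CPM in Th17 (2660 to 2719) and 259 CPM in Th0 (248 to 270). miR-147-3p was 10.4-fold higher in Th17 (9.94 to 10.8), a log2 ratio of 3.37 with 0.5 CPM added to both values. The authors' deposited TPM values, which divide by larger library totals, were 2464 in Th17 and 239 in Th0, a ratio of 10.3. Since RNA of whole cultures was sequenced, a larger share of cells that make miR-147 and more miR-147 per cell cannot be told apart.

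miR-147-5p, the minor arm, had 244 reads in Th17 and 16 reads in Th0. This was 20.4 CPM in Th17 (17.9 to 23.1) and 1.91 CPM in Th0 (1.09 to 3.11). It was 10.6-fold higher in Th17, with a wide interval of 6.42 to 18.9 because of the 16 reads in Th0. Its log2 ratio with 0.5 CPM added was 3.11, which understates the difference at this low level. Without the addition, the log2 fold was 3.41 for the 5p arm and 3.38 for the 3p arm.

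**Figure D1:**
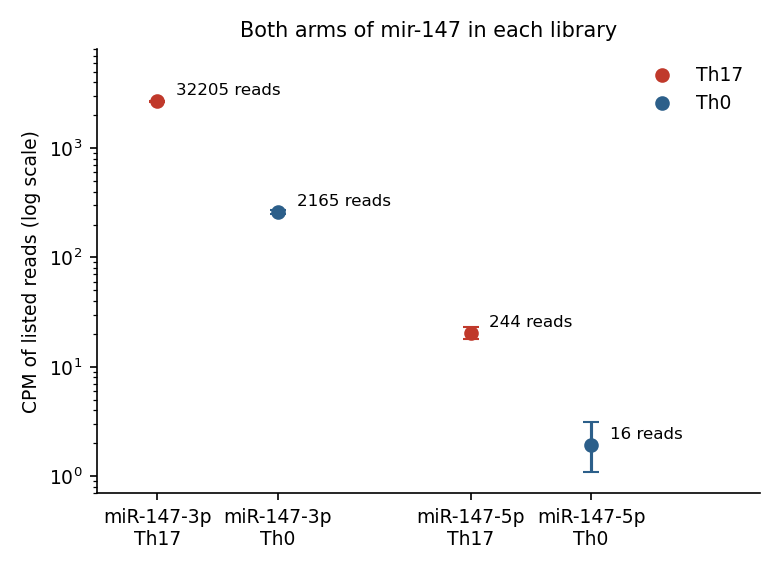
Level of each arm of mir-147 in the Th17 and Th0 libraries, in CPM of listed reads on a log axis. Bars are exact 95% Poisson intervals of the counts, too short to see for miR-147-3p, and the labels give the reads; both arms are about 1 log10 step higher in Th17, and the 5p arm is more than 2 steps below the 3p arm in each library.

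The arm taken from the hairpin was nearly the same in both libraries. miR-147-5p held 0.752% of the reads of both arms in Th17 (exact binomial interval 0.661 to 0.852%) and 0.734% in Th0 (0.420 to 1.19%). This corresponds to 132 reads of the 3p arm for each read of the 5p arm in Th17 and 135 in Th0, so the intervals of the shares overlapped and no shift between arms was detectable at this depth.  Both arms summed to 32449 reads in Th17 and 2181 reads in Th0, 10.4-fold higher in Th17 (9.94 to 10.8).

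mir-147 was set against the other hairpins with separate reads for both arms. There were 75 precursors whose arms both had a mean of at least 10 CPM, and among them the log2 folds of the 5p and 3p arms differed by a median of 0.32. For mir-147 the 5p arm minus the 3p arm came to 0.036, and 6 of the 75 differed by less. Its 5p arm entered this set through Th17, with a mean of 11.1 CPM over both libraries. The fold of that arm had an interval of 6.42 to 18.9, around the 10.4-fold of the 3p arm, so the place of mir-147 among the 75 was not resolved. In 3 of the 75 both arms were at least 2-fold higher in Th17, mir-147, mir-151 and mir-155, and in 7 both were at least 2-fold lower. For mir-151, hosted by an intron of Ptk2, the 5p arm was 3.69-fold and the 3p arm 3.97-fold higher. For mir-155, whose host transcript is induced in activated T cells, the 5p arm was 2.21-fold and the 3p arm 4.51-fold higher. By these point values the arms of mir-155 differed more from each other than those of mir-147. Over the 75 precursors the minor arm held a median of 7.58% of the Th17 reads, and a smaller share than in mir-147 in 10 of them. Hairpins with a minor arm under a mean of 10 CPM were left out of this set. Among those is mir-182, more one-sided than mir-147, with 319854 reads of the 5p arm and 44 of the 3p arm in Th17. The place of mir-147 therefore holds within the 75 only.

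**Figure D2:**
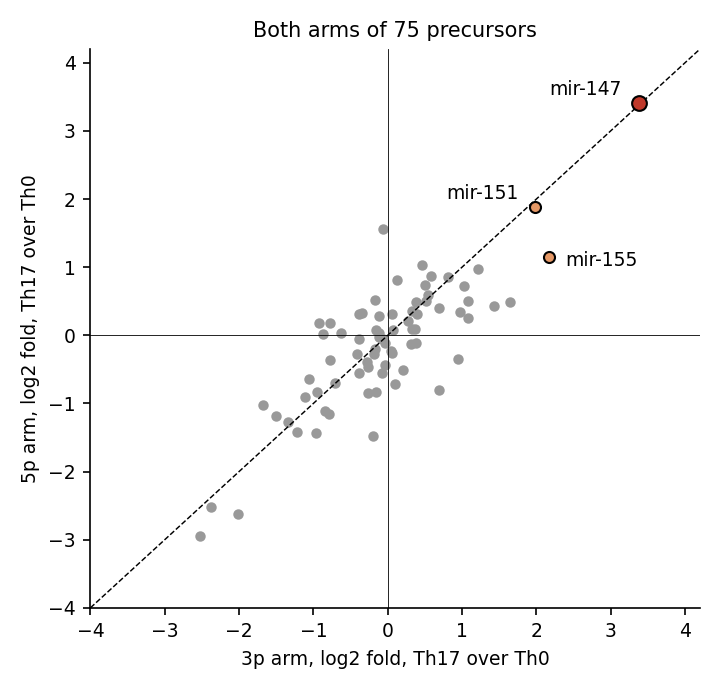
Log2 fold of Th17 over Th0 for the 3p arm (horizontal axis) and the 5p arm (vertical axis) of 75 precursors whose arms both had a mean of at least 10 CPM, with no value added. The dashed line marks equal folds; mir-147 lies on it at 3.38 and 3.41, above and to the right of mir-151 and mir-155.

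miR-147-3p stood higher in the order of abundance in Th17 than in Th0. It was the 36th most abundant of 1012 miRNAs in Th17, with 0.269% of the listed reads (0.266 to 0.272%), and the 114th of 986 in Th0, with 0.0259% (0.0248 to 0.0270%). With the other miRNAs held at their counts, it would stay 36th in Th17 at either end of its counting interval. In Th0 the ends of that interval would place it between 112th and 116th. miR-147-5p was 242nd in Th17 and 444th in Th0.

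In Th17 the miRNAs next to miR-147-3p were mostly ones that were already abundant in Th0. The 5 next above it were miR-342-3p at 3536 CPM, miR-27a-3p at 3088, miR-142b at 3014, let-7c-5p at 2924 and miR-425-5p at 2816 CPM in Th17. The 5 next below were miR-10b-5p at 2611 CPM, miR-23a-3p at 2502, miR-423-3p at 2420, miR-10a-5p at 2292 and miR-30b-5p at 2232 CPM. Of these 10, let-7c-5p was 1.19-fold higher in Th17 than in Th0 (1.17 to 1.21), miR-10b-5p was far higher, and the other 8 had folds of Th17 over Th0 from 0.548 for miR-27a-3p to 0.961 for miR-425-5p.

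In Th0 its neighbours were miRNAs of 235 to 289 CPM whose ratios went both ways. Those next above it in Th0 were miR-17-3p at 289 CPM, miR-28a-3p at 284, miR-330-5p at 277, miR-872-5p at 266 and miR-92b-3p at 265 CPM. Those next below in Th0 were miR-19a-3p and miR-3968, at 255 and 254 CPM, miR-106a-5p at 244, miR-872-3p at 242 and miR-29b-3p at 235 CPM. From nearly the same Th0 level these miRNAs stood far apart in Th17. miR-147-3p reached 2689 CPM in Th17 and miR-92b-3p 1257 CPM, while miR-19a-3p and miR-106a-5p both stood at 39.1 CPM in Th17. The neighbouring Th0 levels of miR-147-3p, miR-92b-3p and miR-19a-3p did not differ beyond their counting error.

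The ratio of miR-147-3p stood near the top of the libraries. A miRNA was called higher or lower when it had a mean of at least 10 CPM, a fold of at least 2 and an interval excluding 1. Of 298 miRNAs at that level, 20 were called higher in Th17 (6.71%) and 39 lower (13.1%), and 3 were at least 10-fold higher (1.01%). These 3 were miR-10b-5p, miR-147-3p and miR-147-5p. miR-147-5p, the partner arm, passed the level of 10 CPM only through Th17, with 1.91 CPM in Th0, and is not a separate case. Since the ratio chose miR-147-3p, nothing is read from these shares. The median log2 ratio of the 298 was -0.080, and their central 95% ran from -2.53 to 1.75.

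At a mean of at least 100 CPM, a level that 158 miRNAs reached, miR-10b-5p, encoded within the Hoxd cluster, was the one with a larger ratio than miR-147-3p. It had 31265 reads and 2611 CPM in Th17, close to miR-147-3p in the same library, and 496 reads and 59.3 CPM in Th0. It was 44.0-fold higher in Th17 (40.3 to 48.2). Mir10b lies on chromosome 2 as well, 47.9 Mb away from Mir147.

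**Figure D3:**
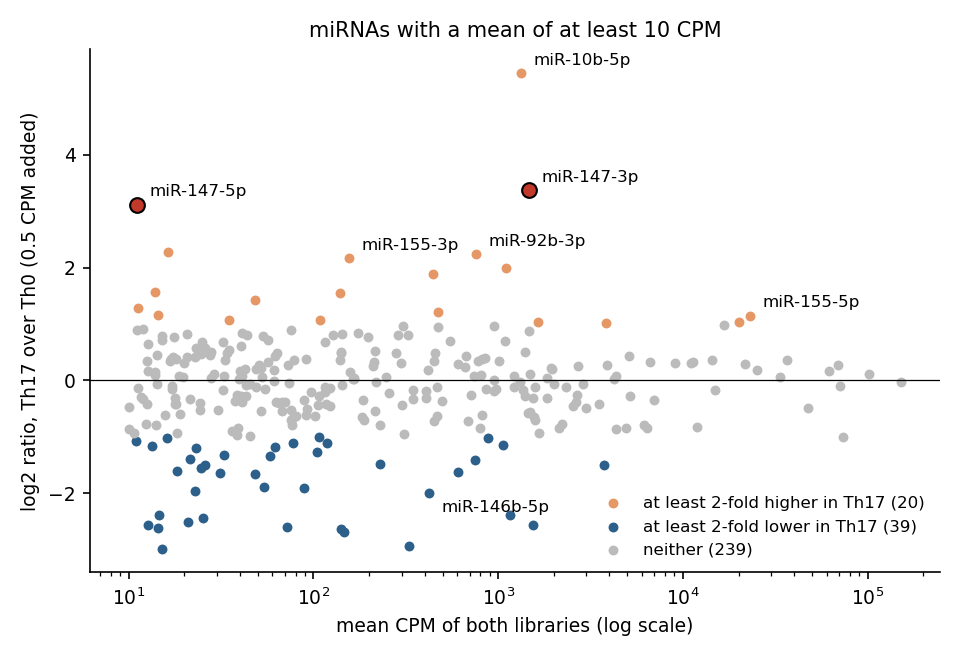
Log2 ratio of Th17 over Th0 (0.5 CPM added) against the mean CPM of both libraries on a log axis, for the 298 miRNAs whose mean reached 10 CPM. Red points are both arms of mir-147, at 3.37 and 3.11; miR-10b-5p lies above them at 5.45, and the next at a mean of at least 100 CPM is miR-92b-3p at 2.24.

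Likeness was measured as the absolute difference of log2 ratios, over miRNAs whose mean reached 100 CPM. The 5 nearest to miR-147-3p all had smaller ratios. miR-92b-3p, with 1257 CPM in Th17 and 265 CPM in Th0, was 4.73-fold higher (4.53 to 4.95). miR-155-3p, with 253 CPM in Th17 and 56.2 CPM in Th0, was 4.51-fold higher (4.09 to 4.98). miR-151-3p, with 1755 CPM in Th17 and 442 CPM in Th0, was 3.97-fold higher (3.83 to 4.11). Next came miR-151-5p at 3.69-fold (3.50 to 3.90) and miR-210-5p, the minor arm of a hypoxia-induced hairpin, at 2.94-fold (2.68 to 3.22). The difference from miR-147-3p was 1.13 on the log2 scale for miR-92b-3p and 1.83 for miR-210-5p. This likeness rests on a single ratio from 2 libraries.

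A further 3 miRNAs, chosen after their values were seen, had larger log2 ratios (0.5 CPM added) than miR-147-3p at a mean under 10 CPM. miR-7649-3p had 211 reads in Th17 and 2 in Th0. miR-196b-5p, from a Hox cluster, had 110 reads in Th17 and 1 in Th0. miR-455-3p had 194 reads in Th17 and 7 in Th0. Their folds rest on 7 reads or fewer in Th0, so that for miR-455-3p, the best counted, the interval ran from 9.21 to 48.8. With nothing added, others at a mean under 10 CPM also had larger folds than miR-147-3p. Among them were miR-199a-5p at 16.2-fold (6.13 to 60.8), with 4 reads in Th0, and miR-1247-5p at 16.1-fold, with 2 reads in Th0.

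In reads gained rather than in ratio, miR-147-3p ranked lower. Its CPM was higher in Th17 by 2430 CPM, the 14th largest gain of all listed miRNAs, and this was 1.95% of all gains summed. miR-155-5p, the largest, gained 17403 CPM at a fold of 2.21. miR-146a-5p gained 2610 CPM and miR-10b-5p 2551 CPM, close to the gain of miR-147-3p.

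Among other miRNAs known to be induced by inflammatory signals, 4 of 9 measured were called higher in Th17. None had a fold as large as that of miR-147-3p, from which nothing is read, since 1.01% of all 298 were at least 10-fold higher. The list held 11 miRNAs besides miR-147, of which 9 had a mean of at least 10 CPM. Besides the 4 called higher, 1 was called lower and 4 were neither, against 6.71% called higher and 13.1% called lower over all 298. Intervals lay above 1 for 7 and below 1 for 2, against 40.6% and 47.7% of the 298. The median log2 ratio of the 9 was 0.81, against -0.080 for the 298. With the 10 most abundant miRNAs left out of the library totals, 2 of the 9 were at least 2-fold higher, since miR-146a-5p moved to 1.85-fold and miR-99b-5p to 1.87-fold. Both arms of mir-155, 2 of the 4 called higher, come from 1 transcript and are not independent. miR-99b-5p, let-7e-5p and miR-125a-5p, all among the 7 with intervals above 1, share a cluster and may not be independent either.

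miR-155-5p, a promoter of inflammatory T cell responses, had 31749 CPM in Th17 and 14346 CPM in Th0, and was 2.21-fold higher (2.20 to 2.23). miR-146a-5p, an NF-κB-induced brake on NF-κB signalling, had 5161 CPM in Th17 and 2552 CPM in Th0, and was 2.02-fold higher (1.99 to 2.05). miR-99b-5p had 2219 CPM in Th17 and 1084 CPM in Th0, and was 2.05-fold higher (2.00 to 2.10). Counted in reads, miR-147-3p in the Th17 library was thus 1.21 times as abundant as miR-99b-5p and 0.521 times as abundant as miR-146a-5p, whereas in the Th0 library it was 0.239 and 0.102 times as abundant.

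let-7e-5p and miR-125a-5p, encoded in the same cluster as miR-99b, were 1.76-fold (1.62 to 1.91) and 1.34-fold (1.30 to 1.39) higher in Th17. miR-132-3p, which responds to CREB signalling, was 1.42-fold higher (1.39 to 1.46). miR-21a-5p, the most abundant miRNA of both libraries, had 150405 CPM in Th17 and 153148 CPM in Th0, and its log2 ratio of -0.026 turned to 0.052 under DESeq2 scaling. miR-146b-5p, which shares its seed with miR-146a-5p, went the other way, with 169 CPM in Th17 and 675 CPM in Th0, lower in Th17 by a fold whose interval ran from 3.81 to 4.22. The remaining members had a mean under 10 CPM and were not called. miR-9-5p, at a mean of 9.32 CPM, had 57 reads in Th17 and 116 reads in Th0. It was 2.92-fold lower in Th17 (2.11 to 4.08). miR-187-3p had 31 reads in Th17 and 19 reads in Th0, 1.14-fold higher (0.623 to 2.13).

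**Figure D4:**
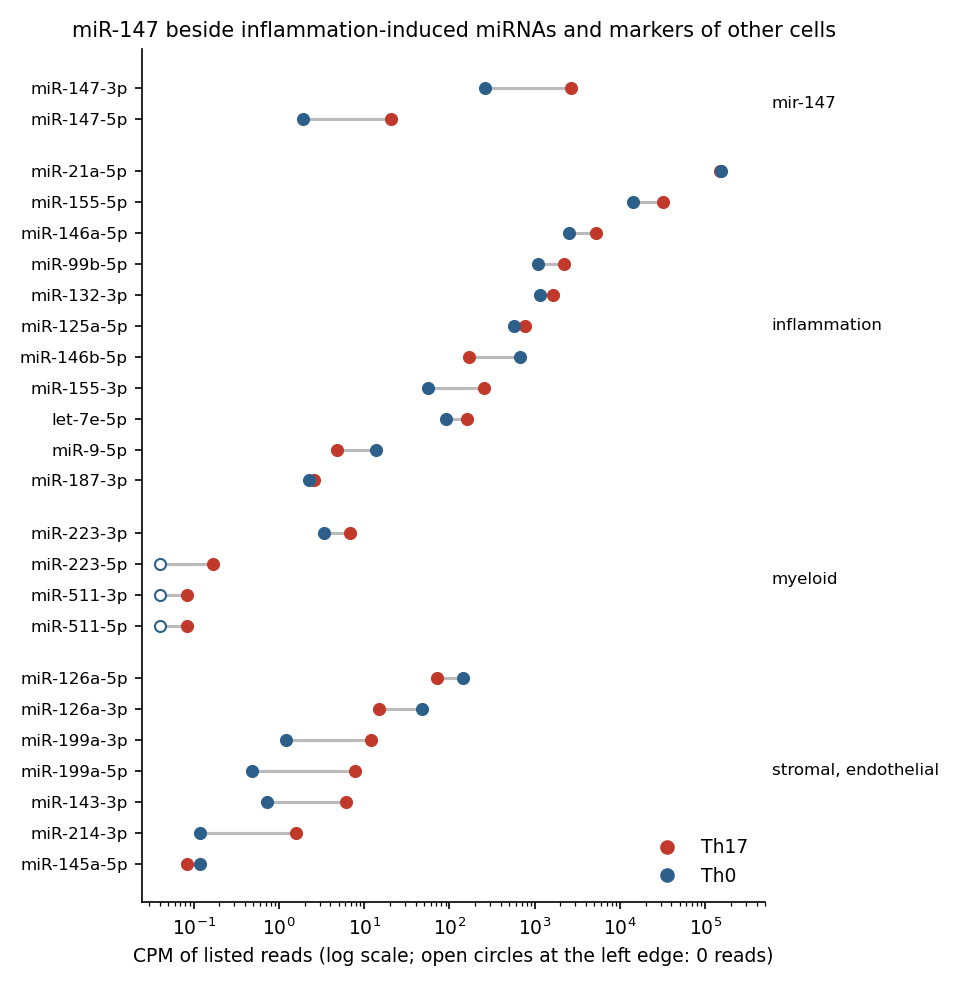
CPM in the Th17 and Th0 libraries on a log axis for both arms of mir-147, 11 inflammation-induced miRNAs, 4 myeloid markers and 7 stromal and endothelial markers. A line joins the levels of a miRNA in both libraries and open circles mark 0 reads; miR-147-3p lies between miR-146a-5p and miR-99b-5p in Th17, and between miR-125a-5p and let-7e-5p in Th0.

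A list of 15 miRNAs with published roles in Th17 cells, which shares 3 members with the inflammation-induced list, was set beside it. All 15 had a mean of at least 10 CPM, 2 were called higher (miR-155-5p and miR-146a-5p), 2 lower (miR-20b-5p and miR-18a-5p) and 11 neither, against 6.71% called higher and 13.1% called lower over all 298. Intervals lay above 1 for 6 and below 1 for 9, against 40.6% and 47.7% of the 298. The median log2 ratio of the 15 was -0.063, which turned to 0.015 under DESeq2 scaling. miR-326-3p, reported to promote Th17 differentiation, had 165 CPM in Th17 and 149 CPM in Th0, so miR-147-3p was 16.3 times as abundant in the Th17 library. miR-20b-5p, reported to restrain Th17 cells, was 7.70-fold lower in Th17 (7.18 to 8.28). None of the 15 had a fold as large as that of miR-147-3p, which was chosen for its ratio. Since 1.01% of all 298 were at least 10-fold higher, nothing is read from this.

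Because miR-147 is best known from macrophages, markers of other cells were read beside it. miRNAs of T cells and blood cells were abundant, with 5 of 5 listed, among them miR-142a-5p at 65898 CPM in Th17 and 58347 CPM in Th0 and miR-150-5p at 12282 CPM in Th17 and 9910 CPM in Th0. None of these 5 was called higher or lower, against 6.71% and 13.1% of all 298, from which nothing is read for 5 miRNAs, and miR-181a-5p reached 2.09-fold higher under DESeq2 scaling and miR-142a-3p a log2 ratio of -1.06 without the 10 most abundant miRNAs in the totals. All 4 myeloid markers had reads in Th17, while 3 of 4 had none in Th0, where 3 reads, 0.359 CPM, is the limit that a count of 0 allows. They summed to 7.10 CPM in Th17 and 3.35 CPM in Th0. Nearly all of this was miR-223-3p, a defining miRNA of granulocytes and macrophages, with 81 reads in Th17 and 28 in Th0, 2.02-fold higher in Th17 (1.30 to 3.22). The other 3 markers had 1 or 2 reads each in Th17. miR-147-3p was 398 times as abundant as miR-223-3p in the Th17 library and 77.3 times in the Th0 library. The part of myeloid cells in the miR-147 reads was not tested.

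The 7 stromal and endothelial markers went both ways. They summed to 113 CPM in Th17 and 194 CPM in Th0, and none was at 0 in either library. The 2 with a mean of at least 10 CPM, miR-126a-5p and miR-126a-3p of endothelial cells, were both called lower, against 13.1% of all 298. They were 2.02-fold (1.85 to 2.21) and 3.19-fold (2.67 to 3.83) lower in Th17, and under DESeq2 scaling the log2 ratio of miR-126a-5p was -0.93, short of 2-fold. The 4 stromal miRNAs miR-199a-3p, miR-199a-5p, miR-143-3p and miR-214-3p had more reads in Th17, as miR-147-3p did. miR-199a-3p, the most abundant of them, had 142 reads in Th17 and 10 in Th0, or 11.9 CPM in Th17 and 1.20 CPM in Th0, 9.91-fold higher (5.23 to 21.1). miR-199a-5p had 93 reads in Th17 and 4 in Th0, 16.2-fold higher (6.13 to 60.8). miR-143-3p had 73 and 6, 8.49-fold higher (3.72 to 23.9), and miR-214-3p 19 and 1, 13.3-fold higher (2.11 to 551). miR-145a-5p had 1 read in each library. Their part in the higher miR-147 reads was not tested, and miR-147-3p was 227 times as abundant as miR-199a-3p in the Th17 library.

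Epithelial markers summed to 229 CPM in Th17 and 414 CPM in Th0, with 2 of the 6 at a mean of at least 10 CPM called lower and none called higher, against 13.1% and 6.71% of all 298, and miR-205-5p at 0 in Th0. Without the 10 most abundant miRNAs in the totals, 3 of the 6 were at least 2-fold lower. Erythroid markers summed to 3.51 CPM in Th17 and 0.838 CPM in Th0, with miR-144-3p at 0 in Th0. None of the 3 erythroid markers reached a mean of 10 CPM, and their part in the miR-147 reads was not tested.

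Among the listed miRNA genes that could be placed, none lay close to Mir147. Of 782 precursors in the files, 750 were matched by name to a GENCODE gene, and 111 of these besides mir-147 were on chromosome 2. The 5 nearest were Mir7665 at 2.62 Mb, Mir3473g at 4.26 Mb, Mir674 at 5.46 Mb, Mir1951 at 7.00 Mb and Mir7002 at 8.49 Mb. Of their miRNAs, both arms of mir-674 reached a mean of 10 CPM. miR-674-3p had 182 CPM in Th17 and 103 CPM in Th0, 1.76-fold higher (1.63 to 1.91), and miR-674-5p had 52.8 CPM in Th17 and 29.1 CPM in Th0, 1.82-fold higher (1.56 to 2.11). The other 4 precursors had at most 14 reads for any miRNA in either library.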

How the data were processed

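Small RNA from 1 Th17 and 1 Th0 library was profiled, per the labels with TruSeq small RNA libraries and Illumina sequencing. Per the file headers, the tables give reads and TPM for each mature miRNA. The counts are whole, unnormalized reads as the authors deposited them. The deposited TPM values are those counts over a larger total, 13070648 reads for Th17 and 9072995 for Th0, as tested on miRNAs with at least 1000 reads. The submitters' processing notes name mm10 as the build. No source used here names the aligner, the miRNA release or the handling of multi-mapping reads.

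CPM is reads over the column sum of the library times 1000000, and an unlisted miRNA was taken as 0 reads, since the smallest listed count was 1. Folds have exact conditional (Clopper-Pearson) 95% intervals, and log2 ratios have 0.5 CPM added. Reads are PCR products without molecular identifiers, so intervals and limits cover counting error only. Since each group is a single library, the conditions were not tested. The alternatives were edgeR 4.0.16 TMM and DESeq2 1.42.0 size factors (R 4.3.3), the authors' totals, totals without the 10 most abundant miRNAs or without mir-147, other pseudocounts and other level filters. The functions were checked on simulated counts.

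The members and lists were chosen with earlier results of these data known. The miRNAs named were those next to miR-147-3p in abundance (5 on each side per library), in ratio (the 5 nearest and any larger at a mean of at least 100 CPM) or on its chromosome (5 precursors), those sharing the seed of miR-147-5p, and list members. Sequences are from RefSeq. Target sites were not analysed here.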

Additional observations from a re-analysis of the deposited data

How the results depend on the processing

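miR-147-3p was called higher in Th17 under all 7 alternatives, with log2 ratios from 3.25 to 3.45 and folds from 9.49 to 11.0. The values outside its counting interval were 3.45 under DESeq2 scaling and 3.25 without the 10 most abundant miRNAs in the total. miR-147-5p, whose alternatives were added after the data were seen, was called higher in all 7, with log2 ratios from 1.88 with 5 CPM added to 3.41 with none. Calls use folds with nothing added, so for both arms the changes of pseudocount could not alter the call. The scalings shifted the median log2 ratio by -0.14 to 0.084, too little to bring the fold of either arm under 2. Since miR-147-3p was chosen for its ratio, nothing is read from its calls. The place of miR-147-3p among miRNAs listed in both libraries was again 36th in Th17 and 114th in Th0. The counts called over all miRNAs moved more: 69 were higher and 100 lower with no filter on low counts, 13 higher and 15 lower at a mean of at least 100 CPM, and 66 lower (29 higher) without the 10 most abundant, where smaller totals put 393 miRNAs above 10 CPM. That scaling shifted the median log2 ratio by -0.14. No paired analysis was possible because each group has 1 library. The 16 reads of miR-147-5p in Th0 limit every statement on the share of the arms.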
